A study of Mus musculus with 6 samples.

Results

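The genes described here are 7 Fc receptor or Fc receptor-like genes and complement receptor 2, taken by name from the gene table: Fcer2a, Fcgr2b, Fcrla, Fcrl1, Fcrl5, Fcgrt, Fcer1g and Cr2. They are 8 of the 27179 genes counted. Expression was high enough for testing in 7 of them, among 11005 genes above the expression limit (an average log2 of counts per 1000000 reads, or CPM, of 0 or more), and Fcer1g fell below it. No measured value entered the choice, although it was made with earlier results of these data known.

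RNA was sequenced from germinal center (GC) B cells of WT mice and of Il21r-/- mice, which lack the receptor for interleukin 21, a cytokine that T follicular helper cells give to B cells. All mice were on the C57BL/6 background and were immunized with NP-KLH in alum, and the cells were sorted from spleen by binding of NP and by surface IgG1 and B220 (NP+, IgG1+, B220+), without CD38, CD138, Gr1, IgD and IgM. One library of each genotype was made on days 7, 10 and 14 after immunization, so that each genotype had 3 libraries and no day had a replicate within a genotype. By the study's methods, such animals were irradiated Ly5.1 hosts given WT or Il21r-/- bone marrow, so that host cells left after irradiation carried Il21r. Cells came from several mice per genotype and from separate immunizations. The labels do not tie mice to libraries, and ages were given as a range over all experiments of the study, not by library. The comparison asks which of these receptors depended on Il21r in GC B cells, and how they moved between days 7 and 14.

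Fc receptors bind the constant part of antibodies. On B cells, FcγRIIB (Fcgr2b) is the inhibitory receptor for IgG immune complexes, and it acts through an ITIM that recruits phosphatases such as SHIP-1. CD23 (Fcer2a) is the low-affinity receptor for IgE, a lectin marking follicular B cells that interleukin 4 induces through STAT6. CD21 (Cr2) binds complement C3 fragments and signals in a complex with CD81, lowering the threshold of the B cell receptor. Mouse Cr2 also encodes CR1 (CD35) by alternative splicing, and counts per gene do not separate these forms.

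The promoters of Fcer2a and Cr2 are shown because both genes are known targets of transcription factors that a short motif can mark, STAT6 and the Notch partner RBPJ. RefSeq (GRCm38.p6) gave 3 start sites for Fcer2a and 1 for each of the other 7 genes, and each window ran from 250 bases before the start to 50 after it. Motif matches are in capitals.
Cr2, chr1:195176670-195176969, minus strand: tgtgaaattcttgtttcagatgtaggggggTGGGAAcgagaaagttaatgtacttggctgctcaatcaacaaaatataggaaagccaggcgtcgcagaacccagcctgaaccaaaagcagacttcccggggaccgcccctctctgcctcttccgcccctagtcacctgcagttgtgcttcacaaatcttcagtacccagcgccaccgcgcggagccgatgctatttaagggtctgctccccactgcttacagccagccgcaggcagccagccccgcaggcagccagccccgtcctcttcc
Fcer2a, the first start, chr8:3694125-3694424, minus strand: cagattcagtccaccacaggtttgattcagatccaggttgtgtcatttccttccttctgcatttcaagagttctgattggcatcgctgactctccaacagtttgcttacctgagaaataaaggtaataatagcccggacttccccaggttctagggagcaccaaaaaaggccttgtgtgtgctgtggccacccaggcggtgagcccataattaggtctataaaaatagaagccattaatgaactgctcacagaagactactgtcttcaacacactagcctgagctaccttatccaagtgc
Fcer2a, the second start, chr8:3690812-3691111, minus strand: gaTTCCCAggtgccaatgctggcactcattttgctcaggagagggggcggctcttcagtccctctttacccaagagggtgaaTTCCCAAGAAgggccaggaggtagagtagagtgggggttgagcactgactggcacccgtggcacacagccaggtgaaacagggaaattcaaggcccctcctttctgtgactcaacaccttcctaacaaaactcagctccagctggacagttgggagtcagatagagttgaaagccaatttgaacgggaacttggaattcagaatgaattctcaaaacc
Fcer2a, the third start, chr8:3690341-3690640, minus strand: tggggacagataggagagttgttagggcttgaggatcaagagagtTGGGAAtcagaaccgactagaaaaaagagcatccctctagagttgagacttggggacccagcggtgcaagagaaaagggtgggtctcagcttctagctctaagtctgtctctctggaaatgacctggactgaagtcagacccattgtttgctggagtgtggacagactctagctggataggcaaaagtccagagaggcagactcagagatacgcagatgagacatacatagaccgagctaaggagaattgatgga
The searched STAT motif with 4 spacer bases, TTCNNNNGAA, reads the same on both strands. It was found in 1 of the 10 windows, beginning 168 bases before the second Fcer2a start, against 6.95% of all 32851 RefSeq promoter windows of this length. With 3 spacer bases, TTCNNNGAA was in 0 of the 10 windows and in 8.30% of all windows. The RBPJ core TGGGAA, searched on both strands, was in 3 of the 10 windows and in 25.6% of all. The 3 were Cr2 and the second and the third Fcer2a start, and 1 of the RBPJ matches in the second Fcer2a window (minus strand) shared its letters with the STAT match. These matches describe the letters of the windows and are not evidence of binding.

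The libraries held 21353438 to 27435124 counted reads. Il21r itself was at 346, 263 and 247 CPM in WT on days 7, 10 and 14, and at 106, 128 and 113 CPM in Il21r-/-. It fell by 1.29 on the log2 scale (SE 0.13, adjusted p = 0.0014), so the labels and the targeted gene matched, with RNA counted over the gene still present in Il21r-/-. All 12 GC B cell markers examined were above the limit, and 1 of the 12 (Pax5) rose, against 4.52% of all tested genes. The fit with day as a factor called 4 of the 12 higher and 3 lower, against 1492 and 1027 of all 11005 tested genes. Among the naive and follicular B cell markers, Ccr7, Klf2 and S1pr1 rose by 1.02 to 1.81 (log2) in Il21r-/- and Ighm fell by 0.48, while Ighd was near 1 CPM in both genotypes (1.17 and 1.27) and Cd38 was at 11.6 and 12.2. The part of such cells in the values below was not tested. In RNA from a sorted population, fewer cells of a type and less RNA per cell cannot be told apart.

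Over the 3 days, Fcer2a, Fcgrt and Fcrl5 were higher in Il21r-/-, and no gene of the group was lower. That is 3 of the 7 tested genes, against 4.52% of all tested genes called higher in Il21r-/- (497 of 11005). The median log2 fold change (Il21r-/- over WT) of the 7 was 0.47, against 0.01 over all tested genes. Fcrl5 averaged 0.684 CPM in WT and 2.38 CPM in Il21r-/-, so it passed the expression limit through the Il21r-/- libraries, and its place in these counts is a description. Without it, 2 of 6 genes were called and the median was 0.41. In these same 3 genes all Il21r-/- libraries lay above all WT libraries, as did 10.0% of all tested genes. In another fit, day entered the model as a factor, so that WT and Il21r-/- were compared within each day. It is called the replicate block below, although days are time points and the labels name no matched replicates. In it Fcrla and Fcrl1 were called higher as well, making 5 of 7 against 13.6% of all tested genes.

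**Figure D1:**
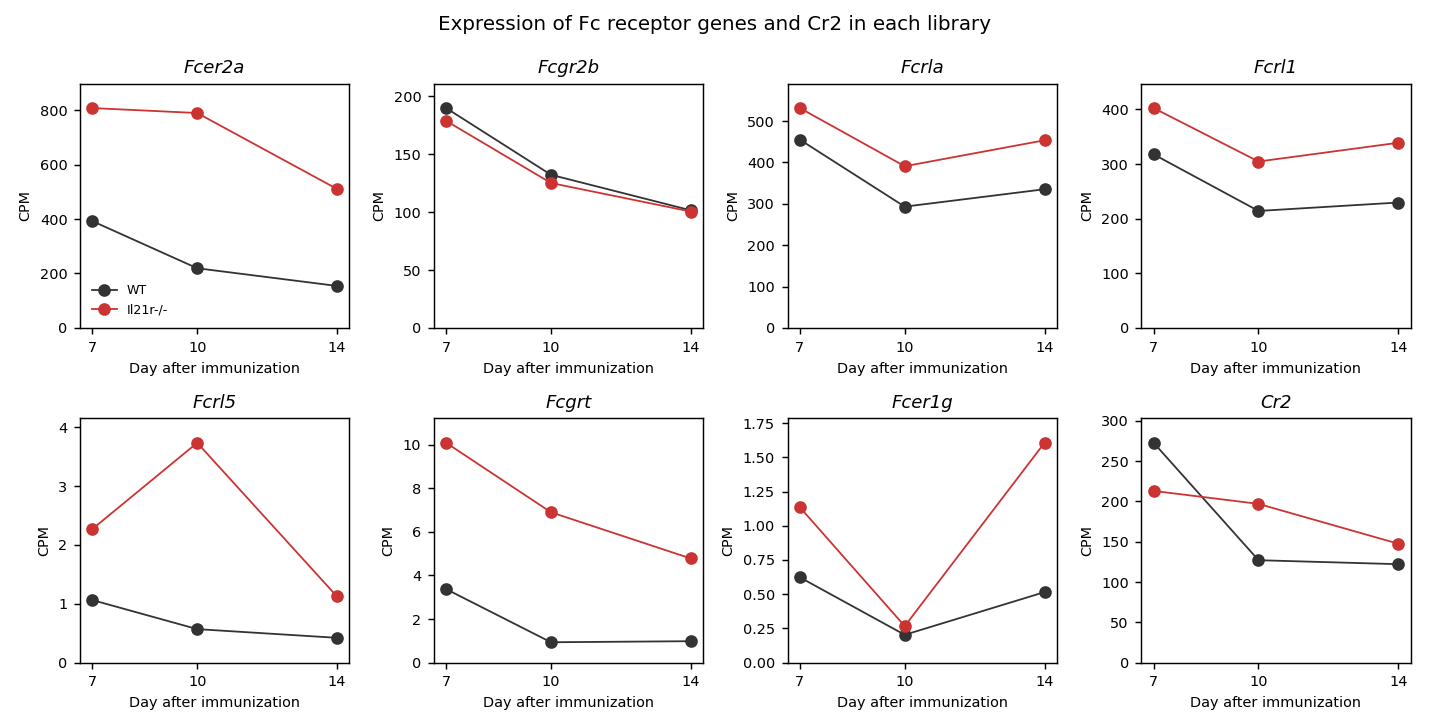
Expression of each gene in CPM (vertical axes, from 0) on days 7, 10 and 14 after immunization, with 1 library per point, WT in black and Il21r-/- in red. The lines for Fcer2a, Fcgrt and Fcrl5 run apart on every day, those for Fcgr2b lie close together, and those for Cr2 cross between days 7 and 10.

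Fcer2a (chr8:3680280-3694174, GRCm38) encodes CD23. In WT it was at 392 CPM on day 7, 219 on day 10 and 154 on day 14. In Il21r-/- it was at 808, 789 and 510.5 CPM on the same days. The lowest Il21r-/- library was above the highest WT library, and the means were 255 ± 123 and 703 ± 167 CPM (SD over the days, n = 3 each). Over the 3 days Fcer2a was 2.91-fold higher in Il21r-/- (log2 fold change 1.54, SE 0.15, 95% interval 1.20 to 1.88, adjusted p = 0.0012), and it passed whichever library was left out (highest adjusted p = 0.0233, without WT day 14). By day, the log2 fold change was 1.04 (SE 0.28), 1.85 (SE 0.28) and 1.73 (SE 0.28). The day 7 value passed the test (adjusted p = 0.0227) but not in the replicate block (adjusted p = 0.066), nor without the WT day 14 library (adjusted p = 0.067), which entered the estimate of spread. Trappc5, which lies within the span of Fcer2a on the opposite strand, shared 0 exon bases with it in GENCODE. RefSeq places long noncoding RNA genes over the spans of Fcrl1, Fcrl5 and Cr2, whose shared exon bases were not computed.

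Fcgr2b (chr1:170960558-170976071) encodes the inhibitory receptor. WT libraries held 189.9, 132 and 102 CPM on days 7, 10 and 14, and Il21r-/- libraries 179, 125 and 100.5 CPM. The genotypes overlapped throughout, with means of 141 ± 44.8 and 135 ± 40.0 CPM (SD, n = 3 each). The log2 fold change over the 3 days was -0.06 (SE 0.10, adjusted p = 0.777), with a 95% interval of -0.28 to 0.16, that is 0.821-fold to 1.12-fold. Fcgr3, the activating neighbor of similar sequence whose reads could be confused with those of Fcgr2b, had 2 to 29 counts per library, against 2169 to 5182 for Fcgr2b. Fcgr4, another IgG receptor of this cluster, had 43 to 158 counts and a log2 fold change of -0.46 (SE 0.23, adjusted p = 0.308).

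Ratios of Fcer2a to Fcgr2b and to Cr2 were taken within each library, where the scaling between libraries does not enter. Per length (CPM divided by the counted gene length in kilobases, or RPKM), Fcer2a was at 1.36, 1.09 and 0.996 times Fcgr2b in WT on days 7, 10 and 14, and at 2.96, 4.14 and 3.33 times Fcgr2b in Il21r-/-. Against Cr2 the ratios were 3.78, 4.54 and 3.32 in WT and 9.97, 10.5 and 9.11 in Il21r-/-. Neither ratio overlapped between genotypes (exact permutation test, two-sided, p = 0.1 for each, the smallest that 3 libraries against 3 allow). Fcer2a made up 16.3% to 24.0% of the summed counts of the 8 genes in WT and 32.8% to 43.4% in Il21r-/-.

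Fcrla (chr1:170917594-170932216) encodes an intracellular Fc receptor-like protein that binds immunoglobulin in the endoplasmic reticulum of B cells. It was at 455, 293 and 335 CPM in WT on days 7, 10 and 14 and at 532, 391 and 454 CPM in Il21r-/-. Il21r-/- was higher on each day, but the genotypes overlapped because day 7 was high in both. The log2 fold change over the 3 days was 0.35 (SE 0.16, adjusted p = 0.237), and with the replicate block 0.36 (SE 0.07, adjusted p = 0.00057).

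Fcrl1 (chr3:87376353-87403967), a B cell surface protein that enhances signaling through the B cell receptor, was, like Fcrla, highest on day 7 and lowest on day 10 in both genotypes. WT libraries held 318, 214 and 229 CPM and Il21r-/- libraries 402, 305 and 339 CPM on days 7, 10 and 14. It too was higher in Il21r-/- on each day with overlapping groups. The log2 fold change was 0.47 (SE 0.14, adjusted p = 0.0946), and 0.47 (SE 0.08, adjusted p = 2.2e-05) with the replicate block. It also passed with DESeq2 (adjusted p = 0.0341) and with no filter on low counts (adjusted p = 0.0363). The ratio of Fcrl1 to Fcrla per length stayed between 0.579 and 0.659 in the 6 libraries, at 0.596 ± 0.020 in WT and 0.644 ± 0.014 in Il21r-/- (SD, n = 3 each, exact permutation p = 0.1, two-sided).

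Fcrl5 (chr3:87435777-87500678), a receptor-like gene known from marginal zone and B-1 B cells with both activating and inhibitory motifs in its tail, was near the limit of detection. The WT libraries had 29, 14 and 9 counts on days 7, 10 and 14, and the Il21r-/- libraries 52, 98 and 28. In CPM these were 1.06, 0.569 and 0.421 against 2.27, 3.73 and 1.12, so that the groups did not overlap but the lowest Il21r-/- library came close to the highest WT library. The log2 fold change was 1.83 (SE 0.41, adjusted p = 0.0325), in a gene that entered the test through its Il21r-/- libraries. This call was lost when any of the WT libraries was left out (adjusted p = 0.0958, 0.0818 and 0.165 without day 7, 10 and 14), and it could not be tested with a minimum of 10 counts in every library. Among 5 marginal zone B cell markers, 4 had positive log2 fold changes, against 51.8% of all tested genes. One of the 4, Cd9, was near 0 (0.004, SE 0.26). S1pr3 rose by 1.10 (adjusted p = 0.0318, and 0.265 with the replicate block) and Dtx1 fell by 0.79 (log2). Cd1d1 differed by 1.42 (adjusted p = 0.134, and 0.0036 with the block), at means of 0.686 CPM in WT and 1.70 in Il21r-/-. Cd1d1 thus passed the expression limit through the Il21r-/- libraries, and its value is a description. The summed level of the list was 121 to 155 CPM in WT and 128 to 168 in Il21r-/-. The part of such cells in the Fcrl5 value was not tested.

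Fcgrt (chr7:45092993-45103822) encodes the heavy chain of the neonatal Fc receptor, which pairs with β2-microglobulin and returns IgG from endosomes to the cell surface. It had 92, 23 and 21 counts in WT on days 7, 10 and 14, and 231, 181 and 119 in Il21r-/-. The corresponding levels were 3.37, 0.935 and 0.983 CPM and 10.1, 6.90 and 4.78 CPM, with every Il21r-/- library above every WT library. Over the 3 days Fcgrt was 4.34-fold higher in Il21r-/- (log2 fold change 2.12, SE 0.29, adjusted p = 0.0049), the largest fold among the 7 genes, and it passed whichever library was left out (highest adjusted p = 0.0468, without WT day 14). On day 7 alone it missed the threshold (1.58, SE 0.49, adjusted p = 0.0956) and passed it with the replicate block (adjusted p = 0.00093). B2m, its partner, had means of 1286 CPM in WT libraries and 1564 in Il21r-/- libraries (log2 fold change 0.29, SE 0.11, adjusted p = 0.166, and 0.0053 with the block). Fcgrt and Il21r are both on chromosome 7, 80.5 Mb apart. At these low levels, the part of myeloid or other cells in the Fcgrt value was not tested.

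Fcer1g (chr1:171229572-171234349), the common γ chain that carries the ITAM of activating Fc receptors, was not tested. Its counts were 17, 5 and 11 in WT and 26, 7 and 40 in Il21r-/- on days 7, 10 and 14, with overlapping groups. Tyrobp, a related adaptor of myeloid cells, had 50, 16 and 22 counts in WT and 71, 21 and 52 in Il21r-/-. Both adaptors were therefore lowest on day 10 in each genotype, and so was the summed level of 12 myeloid markers (8.50 CPM for WT day 10, 12.3 CPM for Il21r-/- day 10, and 12.7 to 20.1 CPM for the other libraries). This sum was higher in Il21r-/- on each day (20.1 against 14.3, 12.3 against 8.50 and 17.3 against 12.7 CPM). Its largest part was Cd68, at 7.69, 5.94 and 5.99 CPM in WT and 11.1, 9.56 and 9.39 CPM in Il21r-/- on days 7, 10 and 14. Lower in Il21r-/- were Csf1r on day 10 (0.305 against 0.569 CPM) and Lyz2 on day 14 (2.61 against 3.28 CPM). Of the 12 myeloid markers, 4 were tested, and all 4 had positive log2 fold changes, against 51.8% of all tested genes. Cd68 rose (0.62). Adgre1 (1.30, adjusted p = 0.211, and 0.0031 with the replicate block) averaged 0.578 CPM in WT and 1.44 in Il21r-/-. Adgre1 thus passed the expression limit through the Il21r-/- libraries, and its value is a description. Untested markers went both ways (means for WT and Il21r-/- of 1.05 and 0.592 CPM for Itgam, 0.0156 and 0.162 for Fcgr1). Mpo was at 0 in all libraries. Of 8 mast cell, basophil and NK cell markers, 6 were at 0 in all libraries, among them Fcer1a and Ms4a2, the partner chains of Fcer1g in the high-affinity IgE receptor. The part of myeloid cells in the Fcer1g counts was not tested.

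Cr2 (chr1:195136811-195176880) encodes CD21, and it had genotype differences on either side of 0 by day. WT libraries held 273, 127 and 122 CPM and Il21r-/- libraries 213, 197 and 148 CPM on days 7, 10 and 14. Il21r-/- was thus lower on day 7 and higher on the later days, and the groups overlapped. The log2 fold changes were -0.36 (SE 0.33), 0.63 (SE 0.33) and 0.27 (SE 0.33), and none passed the test (adjusted p = 0.999, 0.489 and 0.858). Over the 3 days it was 0.16 (SE 0.18, adjusted p = 0.672, 95% interval -0.25 to 0.57), and it was -0.015 without the WT day 10 library. Cr1l, the paralog of Cr2 and a complement regulator, differed by 0.09 (SE 0.13, adjusted p = 0.762). Cd81, a tetraspanin of the coreceptor that holds CD21, differed by 0.37 (SE 0.12, adjusted p = 0.109), and it was called higher with the replicate block (adjusted p = 0.00069).

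**Figure D2:**
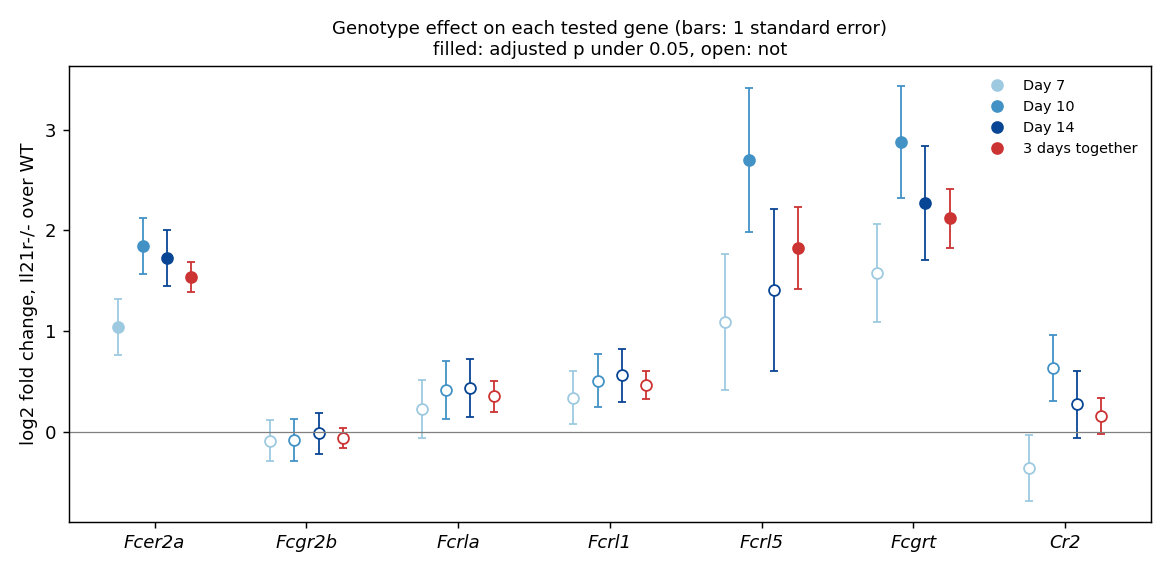
Log2 fold change (Il21r-/- over WT, vertical axis) of the 7 tested genes on each day and over the 3 days, with bars of 1 standard error. Filled points had an adjusted p under 0.05. Fcer2a is filled at all 4 points, Fcgrt at 3, Fcrl5 at 2, and the other genes at none.

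By day, 1 of the 7 genes (Fcer2a) was called higher in Il21r-/- on day 7, against 0.872% of all tested genes. On day 10 there were 3 (Fcer2a, Fcgrt and Fcrl5, or 2 of 6 without Fcrl5), against 2.60%, and on day 14 there were 2 (Fcer2a and Fcgrt), against 2.55%. None was called lower. On day 10 the log2 fold change was 2.88 (SE 0.55) for Fcgrt and 2.70 (SE 0.71) for Fcrl5. Fcgrt was 2.27 on day 14. DESeq2, whose single-day fit also kept a linear day term, gave 2.05 on day 10 and 2.58 on day 14. The edgeR fit with that term kept gave 2.09 and 2.61, so the order of these days changed with the fit. Fcrl5 lost its day 10 call with this DESeq2 fit (adjusted p = 0.187), which changed both the tool and the day term. With the replicate block Fcrl1 was called on days 10 and 14 and Fcrla on day 14. These tests compare 1 library with 1 library and take the spread from the additive model over the 6 libraries.

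With time, all 7 tested genes had lower fitted levels on day 14 than on day 7. Fcgr2b fell by 0.85 (log2, SE 0.12, adjusted p = 0.0113) and Fcer2a fell by 1.02 (SE 0.18, adjusted p = 0.0230), which is 2 of 7 genes against 3.36% of all tested genes called falling. Fcgr2b fell nearly alike in the genotypes, to 53.5% of its day 7 level in WT and 56.2% in Il21r-/- by day 14. Fcer2a was at 39.3% of its day 7 level in WT and at 63.2% in Il21r-/-. Fcgrt (-1.39, SE 0.36, adjusted p = 0.0601) and Cr2 (-0.85, SE 0.22, adjusted p = 0.0639) just missed the threshold, and Fcrla, Fcrl1 and Fcrl5 had values of -0.30, -0.33 and -1.18 with adjusted p of 0.211 to 0.351. The falls rest on single libraries. The call for Fcer2a was lost without WT day 7, WT day 14 or Il21r-/- day 14 (adjusted p = 0.235, 0.307 and 0.0615), and that for Fcgr2b without WT day 7, WT day 14 or Il21r-/- day 7 (adjusted p = 0.170, 0.154 and 0.0699).

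Whether the slope over days differed between genotypes was tested directly. By edgeR's quasi-likelihood test 0 of the 7 genes and 0% of all tested genes (0 of 11005) passed, with 0 of the 7 and 118 of all genes at an unadjusted p under 0.05, and DESeq2 also called 0. With the replicate block 31 genes and 0 of the 7 passed, with 525 genes and 2 of the 7 (Fcer2a and Cr2, adjusted p = 0.257 and 0.671 with edgeR) at an unadjusted p under 0.05. For Fcer2a the difference in slope was 0.64 over the 7 days (SE 0.34, 95% interval -0.17 to 1.44), and for Cr2 it was 0.57 (SE 0.44, interval -0.46 to 1.61). No difference in timing passed the adjusted threshold for these genes.

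Levels were compared between genes only per length. In WT the mean RPKM ran from Fcrla (209) through Fcrl1 (124), Fcer2a (108), Fcgr2b (91.3), Cr2 (28.04), Fcgrt (1.01) and Fcer1g (0.679) to Fcrl5 (0.198). The ranges of Fcrl1, Fcer2a and Fcgr2b overlapped from each to the next, as did those of Fcgrt and Fcer1g, and the other neighbors did not. In Il21r-/- the order was Fcer2a (298), Fcrla (266), Fcrl1 (171), Fcgr2b (87.1), Cr2 (30.0), Fcgrt (4.17), Fcer1g (1.52) and Fcrl5 (0.688). By these means over days Fcer2a ranked 3 in WT and 1 in Il21r-/-. In Il21r-/- its range (216 to 343 RPKM) overlapped that of Fcrla (226 to 308 RPKM), which was the higher on day 14, and the ranges of Fcer1g and Fcrl5 overlapped as well. The 8 genes together took 0.0945% to 0.162% of all counted reads in WT and 0.148% to 0.206% in Il21r-/-.

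**Figure D3:**
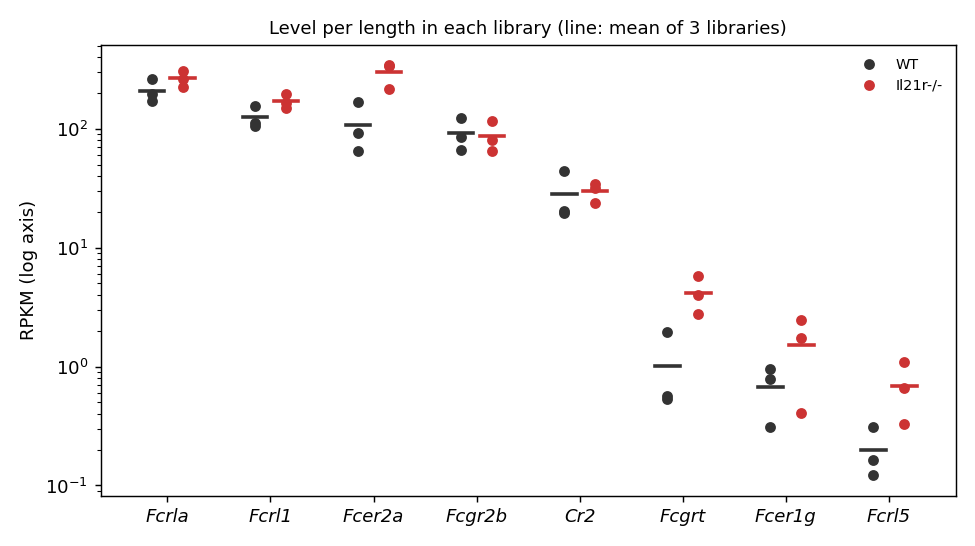
RPKM of each gene (vertical log axis) in the 3 WT (black) and 3 Il21r-/- (red) libraries, with a line at each mean, in the order of the WT means. A gap separates the genes at 20 RPKM or more on average (Fcrla to Cr2) from Fcgrt, Fcer1g and Fcrl5, and Fcer2a is the only one of the abundant genes with separate groups.

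Across the 6 libraries the log2 CPM of Fcrla and Fcrl1 had a Pearson r of 0.981, that of Fcer2a and Fcgrt 0.976 and that of Fcer2a and Fcrl5 0.952, whereas that of Fcgr2b with Fcer2a was 0.382. The 6 points share the genotype and day of their libraries, so these values are descriptions. The tested genes with the most similar pattern were Ifngr2, Asb2 and Carmil1 for Fcer2a (r = 0.998, 0.997 and 0.997), Vim, Cers2 and Scd2 for Fcgr2b (0.996, 0.995 and 0.993), Camk2a, Zyx and Gm2666 for Fcgrt (0.996, 0.996 and 0.995), and Aff3, Slc23a2 and Notch2 for Fcrl5 (0.996, 0.995 and 0.992). Those for Fcrla were Gm14719, Txnip and Itfg1 (0.995, 0.995 and 0.993), those for Fcrl1 Ms4a4c, Ctss and BE692007 (0.994, 0.994 and 0.993), and those for Cr2 Angel2, Sema7a and Irak2 (0.987, 0.986 and 0.984). With 6 points many genes reach such values, and 44 (Cr2) to 248 (Fcer2a) genes had an r above 0.95. Fcrla, Fcgr2b and Fcer1g lie within 317 kb on chromosome 1 and Fcrl1 and Fcrl5 within 124 kb on chromosome 3. Of these, Fcrl5 was called over the 3 days, Fcrla, Fcgr2b and Fcrl1 were not, and Fcer1g was not tested.

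Of the other Fc receptors, 3 of 12 genes were tested and 0 were called over the 3 days by edgeR with a linear day term. Their median log2 fold change was 0.12. On day 14, 1 of the 3 was called higher, against 2.55% of all tested genes. Fcmr, the IgM receptor, passed over the 3 days in the replicate block and with DESeq2. Fcmr was at 343, 263 and 205 CPM in WT and 375, 405 and 370.0 CPM in Il21r-/- on days 7, 10 and 14, without overlap. Its log2 fold change was 0.53 (SE 0.13, adjusted p = 0.0551, 0.0207 with the block and 0.0063 with DESeq2). Fcrlb, the paralog of Fcrla, had 8 to 35 counts per library and was not tested.

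Among the complement receptors and regulators, 7 of 14 genes were tested, with a median log2 fold change of 0.01. Of the 7, 1 was called higher, against 4.52% of all tested genes. This gene was Cd55, decay-accelerating factor, which limits complement activation on the cell surface. It was at 11.5, 8.09 and 3.89 CPM in WT and 24.3, 17.1 and 12.6 CPM in Il21r-/- on days 7, 10 and 14, without overlap (log2 fold change 1.26, SE 0.15, adjusted p = 0.0030).

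Of 12 partners and ligands of the receptors, 9 were tested, with a median of 0.27. With the replicate block 5 rose, against 13.6% of all tested genes, and without it 1 rose, against 4.52%. The gene that rose without the block was Ighe, the constant region of IgE and so of the ligand of CD23. It was at 16.3, 12.2 and 18.1 CPM in WT and at 107, 123 and 107 CPM in Il21r-/- on days 7, 10 and 14, in cells sorted as IgG1+ (log2 fold change 2.85, SE 0.15, adjusted p = 6.9e-05). Counts over Ighe do not separate transcripts of switched cells from germline transcripts. Il4ra and Stat6, the receptor chain and factor through which interleukin 4 acts, differed by 0.25 (SE 0.11, adjusted p = 0.226, and 0.0211 with the block) and 0.18 (SE 0.13, adjusted p = 0.460).

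In the ITAM and ITIM signaling list, 20 of 21 genes were tested and 2 were called higher, against 4.52% of all tested genes. The 2 were Cd72 and Siglecg, both inhibitory B cell receptors with ITIMs. The list's median was 0.05. Cd72 was at 54.4, 26.3 and 12.3 CPM in WT and 132, 96.2 and 91.3 CPM in Il21r-/- on days 7, 10 and 14 (log2 fold change 1.98, SE 0.25, adjusted p = 0.0042). It lost its call with the replicate block (adjusted p = 0.129), without a filter on low counts (0.0732) and without Il21r-/- day 10 (0.117). Siglecg differed by 0.48 (SE 0.10, adjusted p = 0.0244) and lost its call without WT day 10, WT day 14, Il21r-/- day 7 or Il21r-/- day 14 (adjusted p = 0.130, 0.225, 0.0577 and 0.175). By edgeR with a linear day term, kinases and phosphatases downstream of the receptors did not pass. Among them were Lyn (-0.18), Syk (-0.32), Ptpn6 (0.02) and Inpp5d (-0.12), which encode the kinases LYN and SYK and the phosphatases SHP-1 and SHIP-1. Blk, another kinase, passed with DESeq2 (0.33, adjusted p = 0.0442). The replicate block called 6 genes of this list higher and 2 lower, against 1492 and 1027 of all 11005 tested genes. Syk was among the lower (-0.33, adjusted p = 0.0023), and the kinases Fyn (0.35, adjusted p = 0.0038) and Blk (0.34, adjusted p = 0.0011) were among the higher.

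**Figure D4:**
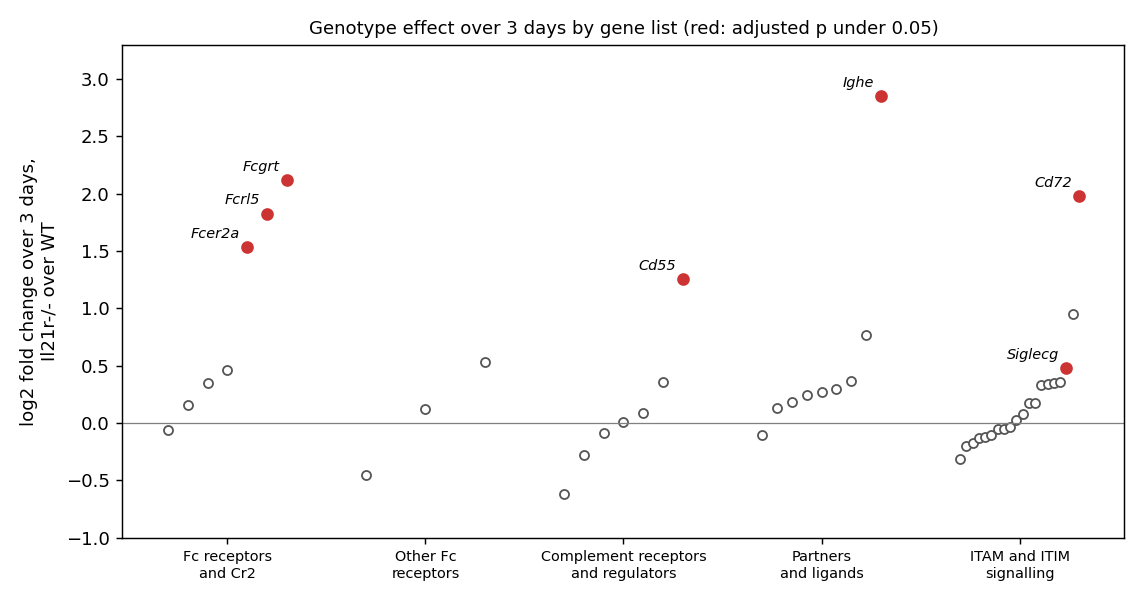
Log2 fold change over the 3 days (Il21r-/- over WT, vertical axis) of every tested gene in the 5 gene lists, sorted within each list, with genes at an adjusted p under 0.05 in red and named. All 7 red points lie above 0.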

How the data were processed

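Single-end RNA-seq of 6 libraries was analysed. The deposited gene counts are raw read counts per gene, made by the authors with Rsubread and featureCounts on mm10 with the inbuilt RefSeq annotation, after CASAVA 1.8.2, with technical replicates pooled. Strand and multi-mapping settings were not given in the sources used here. Totals were 21353438 to 27435124 counts. The Entrez IDs of 27179 genes were matched to symbols (25275 from RefSeq, 18 from GENCODE, 1886 unmatched).

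As in the study's methods, genes with a negative average log2 CPM, Y-chromosome genes, Xist and immunoglobulin variable genes were left out, and counts were TMM-normalised. CPM and RPKM use these library sizes. Models were fitted to all 11005 genes with edgeR 4.0.16 (R 4.3.3). The quasi-likelihood test served the genotype effect over 3 days (genotype plus linear day), the day slope (given per 7 days) and the genotype by day term. A likelihood ratio test with dispersions of the additive model served single days. Adjusted p are Benjamini-Hochberg values over all tested genes, with a threshold of 0.05. The biological coefficient of variation was 13.1%. Scripts were tested on simulated data. P-values measure the spread between libraries, with 3 residual degrees of freedom in the additive model and fewer with a genotype by day term or day as a factor.

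Labels pair WT and Il21r-/- libraries by day. The correlation of their deviations from the group means across genes was 0.640, 0.413 and 0.645 on days 7, 10 and 14. These values include the change over time that both genotypes share, so they cannot show matched replicates. The fit with day as a factor is called the replicate block here, although days are time points. Other alternatives were DESeq2 1.42.0 (size factors, or its Wald test), other filters and leaving out each library. For single days the Wald test kept a linear day term, whereas the edgeR fit used a mean for each day. Genes named outside the group are those called over 3 days in 4 lists (other Fc receptors, complement, partners, ITAM and ITIM signaling), fixed paralogs and partners, and the 3 genes most correlated with each. Marker genes were checked for GC, naive, marginal zone and plasma cells, myeloid, mast and NK, T, follicular dendritic and erythroid cells. Members and lists were chosen with earlier results of these data known. Sequences and positions are from RefSeq GRCm38.p6. A few marker and partner genes are not reported here.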

Additional observations from a re-analysis of the deposited data

How the results depend on the processing

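Depth limits Fcrl5, Fcgrt and Fcer1g, which had as few as 9, 21 and 5 counts in a library, and intervals do not cover differences between mice within a day. Over the 3 days, Fcer2a, Fcgrt and Fcrl5 passed under every alternative in which they were tested other than leaving out libraries. The number of all tested genes called was 651, and it was 991 with no filter on low counts and 2519 with the replicate block, which called 5 of the 7 genes. On day 7 it was 118, and 67 with DESeq2's Wald test and 303 with the block, and 2 of the 7 genes were called with a linear day term kept. On day 10 it was 341, and 213 with DESeq2, 822 with the block and 546 with the linear term. On day 14 it was 361, and 236 with DESeq2 and 1055 with the block, which called 4 of the 7 genes. For the day slope it was 488, and 869 with no filter and 870.0 with DESeq2, which called 4 of the 7. For the difference in slope it was 0, and 31 with the block. The block changed no call of the 7 genes beyond those given with the results. Fcgr2b on day 14 turned from -0.015 to 0.030 with DESeq2 and 0.022 with edgeR, both with the linear day term kept. The cause of these changes was not tested.

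Leaving out 1 library gave 136 (without WT day 14) to 2093 (without Il21r-/- day 10) calls over the 3 days (2 to 5 of the 7 genes), 105 to 212 on day 7 (0 to 2), 272 to 405 on day 10 (3 to 3), 339 to 698 on day 14 (2 to 2), 0 (without WT day 7) to 2124 (without Il21r-/- day 10) for the day slope (0 to 4), and 0 to 11 for the difference in slope (0 to 0). Values of uncalled genes changed sign. Over the 3 days Cr2 ranged from -0.015 to 0.45 and Cr1l from -0.044 to 0.21. Differences in slope ranged from -0.39 to 0.40 for Fcgr2b, -0.71 to 1.28 for Fcrla, -0.58 to 1.10 for Fcrl1, -1.60 to 2.98 for Fcrl5, -1.25 to 3.23 for Fcgrt and -0.50 to 2.03 for Cr2. A single day could not be tested without 1 of its own libraries, and with a minimum of 10 counts Fcrl5 had no value.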

Other observations

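Some cell type markers outside the comparisons also differed over the 3 days. Prdm1, which drives plasma cell differentiation, fell by 1.64 (log2, SE 0.33, adjusted p = 0.0216) in Il21r-/-. It averaged 1.60 CPM in WT and 0.518 in Il21r-/-. Prdm1 thus passed the expression limit through the WT libraries, and its value is a description. Xbp1, another plasma cell factor, rose by 0.39 (SE 0.09, adjusted p = 0.0396). Cd5, a T cell and B-1 cell marker, rose by 2.10 (SE 0.32, adjusted p = 0.0070) at a mean of 0.675 CPM in WT and 2.80 in Il21r-/-. The other T cell markers went both ways. Means in WT and Il21r-/- were 0.304 and 0.460 CPM for Cd3d and 0.207 and 0.305 for Cd4. They were 0.0448 and 0.0388 CPM for Cd3e, and Cd3g, Cd8a, Il7r and Lck also had lower means in Il21r-/-. Cd5 passed the expression limit through the Il21r-/- libraries, and its value is also a description. Mfge8, which follicular dendritic cells and macrophages express, rose by 0.72 (SE 0.17, adjusted p = 0.0419). Of the 7 follicular dendritic cell markers, 2 were tested, and both had positive log2 fold changes (median 0.99), against 51.8% of all tested genes. Cxcl13 and Pdpn were at 0 in all libraries. The summed level of the list was 5.57 to 7.44 CPM in WT and 8.42 to 14.4 CPM in Il21r-/-. The part of such cells in these values was not tested. Of the erythroid and platelet markers, 3 were tested and 0 were called by edgeR.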
